A study of Salmo salar with 18 samples.

Results

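On the salmon array, 98 probes were lower in the liver of every warmed fish than in that of any control fish, and lower to a like extent whether the warm water was fully aerated or moderately hypoxic. They were chosen from the authors' log2 ratios among the 11761 probes with a value on all 18 arrays. The highest of the 12 warmed fish had to lie below the lowest of the 6 control fish, the mean of the warmed fish at least 1 below the control mean on the log2 scale, and the means of the 2 warm treatments less than 0.5 apart. Probes of the study's qPCR gene table were left out. The 98 probes were thus chosen on the measured values, and their decrease and the likeness of the treatments are given below as a description.

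The fish were juvenile Atlantic salmon (post-smolts), fed and then fasted for a day before sampling, from tanks in which temperature was raised stepwise or left unchanged. WN fish were held at 20 °C and 100% air saturation, WH fish at 20 °C and 70%, and CT fish at 12 °C and 100%. Each treatment had 6 fish, 3 from each of 2 tanks, and no group carried a genetic change. RNA of each fish was labelled with Cy5 and set against one pool of all 18 fish, labelled with Cy3 without a dye swap, so each value is the log2 ratio of a fish to that pool. Treatment was given to tanks while fish were the unit of every test, so tank-mates counted as independent. How precise a value can be is limited by the number of arrays. An array had 8.93% to 17.3% of its probes flagged, and the median Cy5 signal was 14.0 to 110 times the local background. The median Cy5 background was 1 on most arrays, 40 in CT-2 and 92 in WN-5, so this ratio also reflects the background.

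The liver is the main site of energy storage, protein secretion and lipid handling in fish, and in young growing salmon it still contains dividing cells. A dividing cell needs enzymes that keep the pool of thymidine nucleotides clean, histones that package new DNA and motors that build the mitotic spindle. All liver cells need pyruvate transport into mitochondria, an endoplasmic reticulum that is shaped and kept in order, and lysosomes that break proteins and glycolipids down. Of the 17 probes with a gene name, some had these roles and others did not. In whole liver, fewer cells of a type and less RNA per cell cannot be told apart.

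Of the 11761 probes, 166 (1.41%) had all 12 warmed fish below all 6 CT fish. Of these, 113 had a mean decrease of at least 1, and 13 of those were left out because WN and WH fish differed by 0.5 or more, 9 of them being lower in WH fish and 4 lower in WN fish. Leaving out 2 qPCR probes, of cirbp and hspd1, gave the 98. The same rule turned round gave 72 raised probes. In the recomputed values, made anew from the scanner intensities, 93 of the 98 kept the 12 warmed fish below the 6 CT fish, against 1.04% of the probes with a value on every array. The other 5 were C025R120, C265R026, C084R015, C095R038 and the AP1M2 probe C132R146. Where arrays were centred on the median and not normalized by loess, 39 of the 98 had no overlap, against 0.332% of the probes. The rule chose the 98 for this separation on the same scans, so a share above that of all probes was built in.

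Across the 98 probes, the mean of the warmed fish lay 1.01 to 3.08 below the CT mean on the log2 scale (median 1.34), which is a 2.02- to 8.48-fold lower ratio (median 2.54-fold). The decrease was over 2 in 18 probes, 1.5 to 2 in 23 and under 1.5 in 57. The gap between the lowest CT fish and the highest warmed fish ran from 0.00 to 1.75 (median 0.30). Within groups, the median SD of the 98 probes was 0.42 in WN fish, 0.35 in WH fish and 0.34 in CT fish, while over all 11761 probes it was 0.44 in WN fish, 0.38 in WH fish and 0.39 in CT fish. In the recomputed values the decrease was smaller in all 98 probes, with a median change of -1.29, and it stayed at 1 or more in 92.

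**Figure D1:**
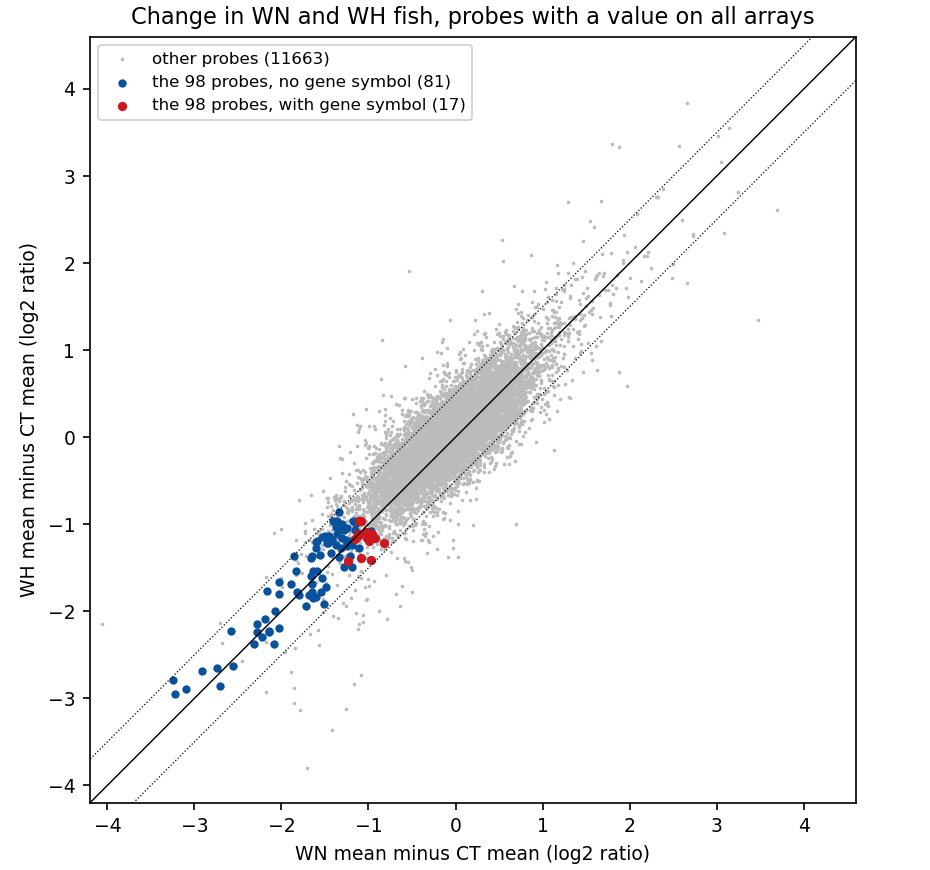
Mean change from CT fish in WN fish (x axis) and in WH fish (y axis), as differences of log2 ratios, for the 11761 probes with a value on all arrays. Blue and red points are the 98 probes without and with a gene symbol; the solid line marks equal change and the dotted lines a difference of 0.5, within which the 98 lie by the rule, down to a mean change of -3.08.

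By limma with Benjamini-Hochberg adjustment over 23846 probes, all 98 passed in WN v CT and all 98 in WH v CT, where 3.08% and 2.72% of all probes tested were called lower. The rule used the same fish, so nothing is read from these counts. The largest adjusted p among the 98 was 0.0355 in WN v CT and 0.0386 in WH v CT. Both comparisons share the 6 CT fish. In a fit with slide as a block, 93 passed in WN v CT and 84 in WH v CT. The share of all probes called in that fit was not counted, so nothing is read from these counts either.

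Between WH and WN fish, 57 of the 98 probes had a higher mean in WH fish and 41 a lower one. The difference, WH minus WN, ran from -0.44 to 0.49 with a median of 0.07, and it was under 0.1 in size in 29 probes. In limma none of the 98 passed for WH v WN, and none of all probes tested did (0.00%). At an unadjusted p under 0.05 there was 1 of the 98, against 5.77% of all probes. The rule caps this difference, so these counts do not show that the treatments act alike. Of the 17 probes with a gene symbol, 14 were lower in WH than in WN fish, while of the 81 without one it was 27. The names come from a table of probes changed in WN fish, of which the strongest decreases could not be read, so the named probes are those with a moderate decrease in WN fish (0.82 to 1.24) and are not a sample of the 98.

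The 10 probes with the largest decrease have no gene symbol in the sources used here, and no sequence is given for any of the 98. C151R108 ran from -3.35 to -1.12 in WN fish (median -2.14), from -2.87 to -1.34 in WH fish (median -1.71) and from 0.48 to 2.06 in CT fish (median 0.71). Its mean decrease was 3.08, or 8.48-fold, but its Cy5 spot was above background in only 4 of 6 WN and 5 of 6 WH fish, so the size is uncertain. In the recomputed values the change was -2.75 in C151R108 and -2.75 in C263R041, whose spot was above background in all 18 fish. In C263R041 the ratios were -2.44 to -1.41 in WN fish (median -1.79), -2.69 to -0.77 in WH fish (median -1.59) and 0.47 to 1.62 in CT fish (median 1.41). C263R041 thus held the lowest CT fish 1.24 above the highest warmed fish, a WH fish, and its mean decrease was 2.99.

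C171R046 had the widest gap of the 98, 1.75, and tight groups. Its ratios were -1.51 to -0.92 in WN fish (median -1.27), -1.57 to -1.14 in WH fish (median -1.26) and 0.83 to 1.31 in CT fish (median 1.08). C026R151 had -2.34 to -1.17 in WN fish (median -1.96), -2.21 to -1.31 in WH fish (median -1.84) and 0.50 to 1.14 in CT fish (median 0.87). In both probes the WN and WH fish covered nearly the same range. The mean decrease was 2.34 in C171R046 and 2.69 in C026R151.

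C078R056 had a mean decrease of 3.02, with 1 fish far from the others. WN-1 was at -6.95, the other 5 WN fish lay between -2.33 and -0.56, the WH fish between -2.27 and -1.10 and the CT fish between 0.07 and 1.94. Without WN-1, the mean decrease was 2.56, and the WH minus WN difference became -0.50 in place of 0.47. In the authors' values, the sign of that difference thus rests on this fish. In the recomputed values, where a fixed offset is added to every spot and weighs most on weak ones, the WN fish lay between -2.44 and -0.53. There, with WN-1 kept, the mean change was -2.37 and the WH minus WN difference was -0.16. The rest of the 10, C111R151, C127R109, C140R030, C118R056 and C187R068, had mean decreases of 2.26 to 2.80. Of the 10 probes, 4 were not above background in at least 1 WN fish.

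**Figure D2:**
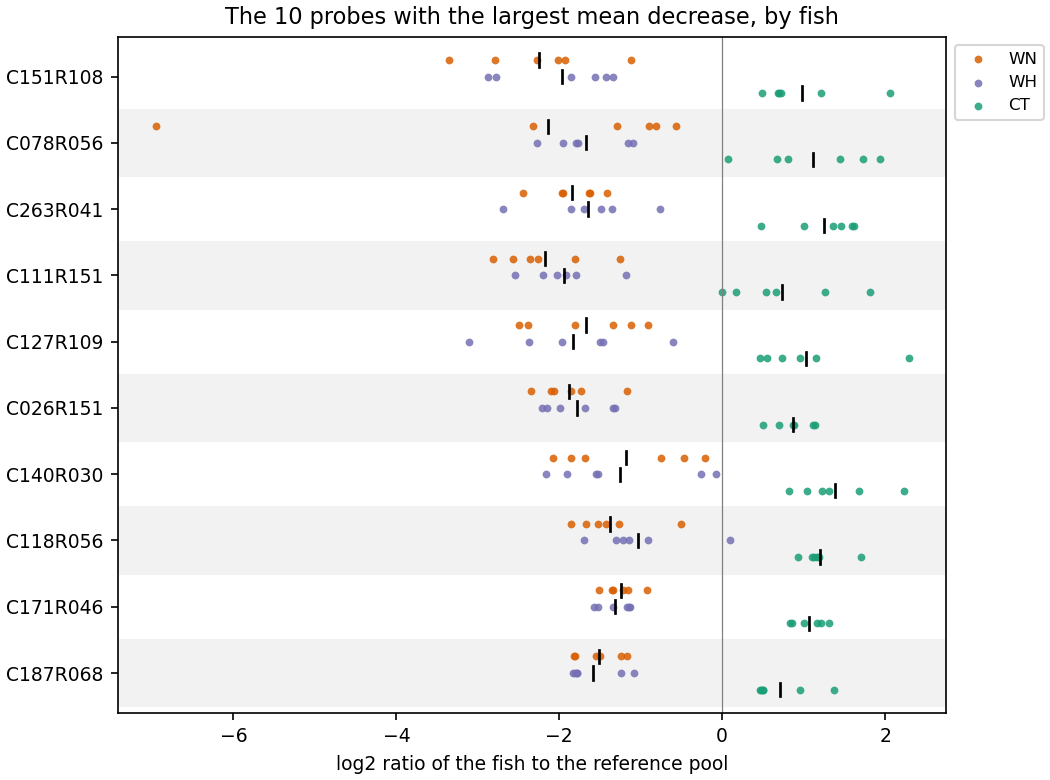
Log2 ratio of each fish to the reference pool (x axis) for the 10 probes with the largest mean decrease, with 6 WN, 6 WH and 6 CT fish in rows and black bars at the group means. No warmed fish reaches the lowest CT fish in any of the 10, and WN-1 stands apart at -6.95 in C078R056.

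A gene symbol was given for 17 of the 98 probes, standing for 15 symbols, and 13 of the 17 matched a gene of the RefSeq annotation of salmon by accession or gene ID. ABRACL and CF115 matched the same RefSeq gene, and both probes of PTP4A2 matched 1 gene. The roles below are known mainly from mammals. None of the 17 was a marker of hepatocytes, red blood cells, B cells, T cells, myeloid cells or exocrine pancreas.

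The largest group among the 17 named probes works in DNA synthesis and cell division. KIF15, a kinesin motor that helps to hold the mitotic spindle open, had ratios of -1.51 to 0.51 in WN fish (median -0.08), -1.09 to 0.30 in WH fish (median -0.43) and 0.59 to 1.20 in CT fish (median 1.03). Its groups were wide, the highest WN fish lay just under the lowest CT fish, and the Cy5 spot was above background in 4 of 6 WN fish. The mean decrease of KIF15 was 1.33, the largest among the named probes. STMN1, stathmin, which takes microtubules apart and is abundant in dividing cells, had -0.92 to -0.11 in WN fish (median -0.52), -1.62 to -0.17 in WH fish (median -1.04) and 0.12 to 0.99 in CT fish (median 0.34). The WH mean of STMN1 was 0.44 lower than the WN mean, the widest difference in that direction among the 98.

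DUT, the dUTPase that keeps uracil out of DNA, had -1.18 to 0.02 in WN fish (median -0.74), -1.46 to -0.36 in WH fish (median -0.72) and 0.09 to 0.68 in CT fish (median 0.31). H2AFX, a histone variant that marks DNA breaks when phosphorylated, had -0.77 to -0.07 in WN fish (median -0.31), -0.69 to -0.22 in WH fish (median -0.39) and -0.06 to 1.03 in CT fish (median 0.73). In H2AFX a single CT fish, CT-3, came within 0.02 of the warmed fish while the other CT fish lay well above. DTYMK, thymidylate kinase, makes the precursor of TTP beside DUT. It had -1.495 to 0.04 in WN fish (median -0.39), -1.60 to 0.07 in WH fish (median -0.32) and 0.41 to 0.70 in CT fish (median 0.48). The mean decrease was 1.06 for DUT, 1.05 for H2AFX and 1.06 for DTYMK.

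The list of DNA replication and cell division genes held 4 of the 98 probes, so not every probe described above was on it. Outside the 98, 37 further named probes of this list were tested. Their median change was -0.84 in WN fish and -0.86 in WH fish, beside 0.01 and 0.04 over all probes tested. In WN v CT 15 fell and 1 rose, and in WH v CT 21 fell and 1 rose. The named probes entered through the study's list of changes in WN fish or its qPCR gene table, both from this experiment. These counts, and those of the lists below, are thus not independent evidence of a direction. Of all probes tested, 3.08% fell in WN v CT and 2.72% in WH v CT. The share of all probes that rose was not counted, so nothing is read from the counts of rises. PTTG1 (securin, which holds sister chromatids together until anaphase) fell by 1.01 in WN fish (limma, SE 0.28, adjusted p = 0.0386) and by 1.41 in WH fish (SE 0.28, adjusted p = 0.00346).

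Metabolism was represented by 2 named probes. BRP44, now MPC2, is a subunit of the carrier that brings pyruvate into mitochondria. It had -1.24 to -0.29 in WN fish (median -0.62), -0.89 to -0.30 in WH fish (median -0.72) and 0.28 to 0.66 in CT fish (median 0.43). The lowest CT fish stood 0.57 above the highest warmed fish, and the WN and WH means of BRP44 differed by 0.01. PTPLB, now HACD2, a dehydratase in the lengthening of very long fatty acids, had -0.997 to 0.29 in WN fish (median -0.23), -0.81 to -0.11 in WH fish (median -0.50) and 0.38 to 1.09 in CT fish (median 0.67). The mean decrease was 1.16 for BRP44 and 1.10 for PTPLB. Of the citrate cycle and respiration list, 34 further named probes were tested. In WN v CT 14 fell and 3 rose, in WH v CT 15 fell and 2 rose, and the median change was -0.77 in WN fish and -0.68 in WH fish. A further BRP44 probe, C081R082, fell by 1.03 in WN fish (limma, SE 0.21, adjusted p = 0.00576) and by 1.03 in WH fish (SE 0.22, adjusted p = 0.0069). NNT, which makes mitochondrial NADPH, fell by 1.00 in WN fish (adjusted p = 0.00527) and by 1.21 in WH fish (adjusted p = 0.000571). In the same fit SDHA, the catalytic subunit of complex II, rose by 1.05 in WN fish (adjusted p = 0.000827) and by 1.16 in WH fish (adjusted p = 0.000247).

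**Figure D3:**
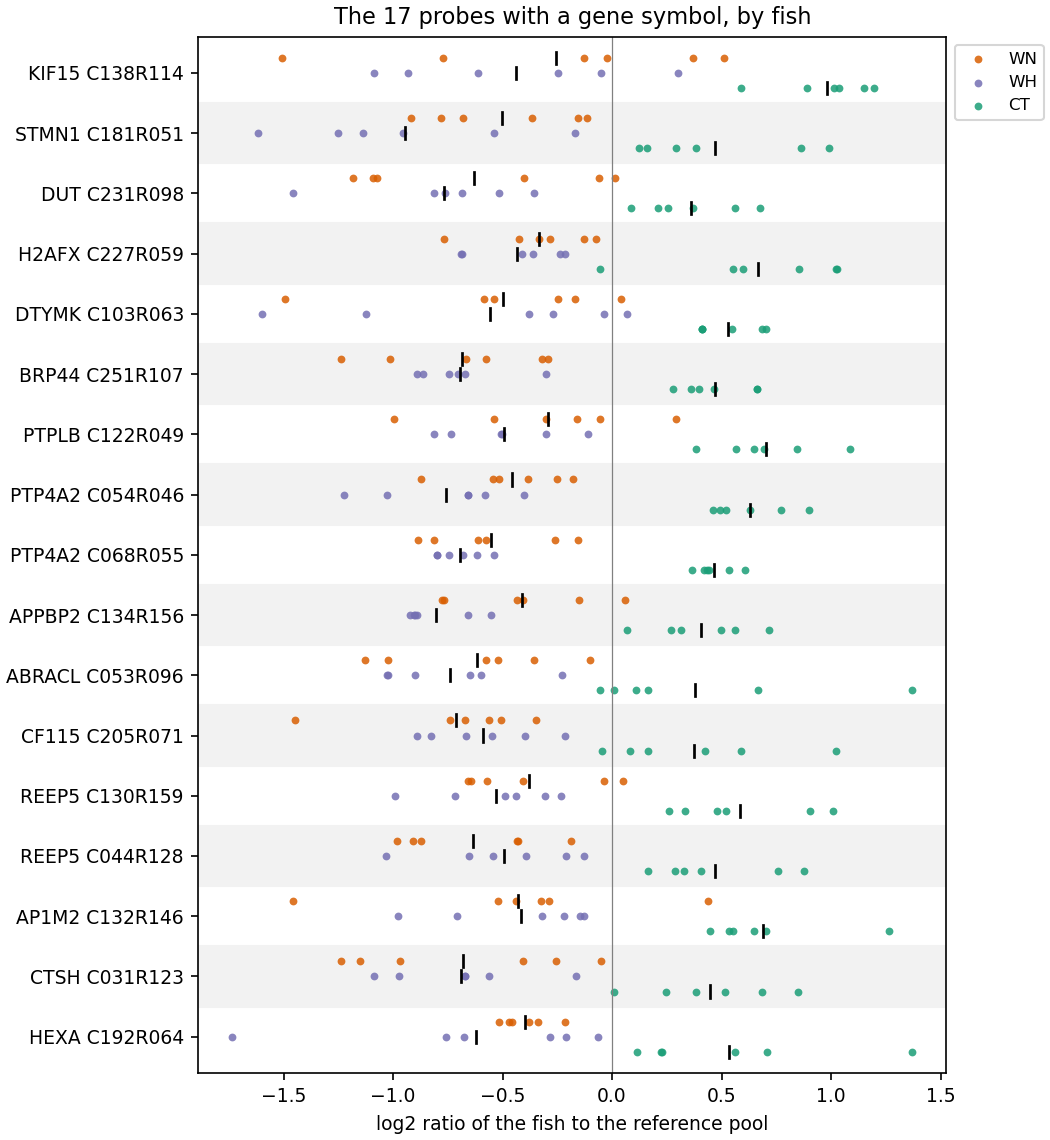
Log2 ratio of each fish to the reference pool (x axis) for the 17 probes with a gene symbol, with WN, WH and CT fish in rows (6 each) and black bars at the group means. Some probes separate by a hair, as AP1M2 and H2AFX do, while both PTP4A2 probes and BRP44 leave a gap of more than 0.5 between warmed and CT fish.

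Membranes and their traffic were represented by 3 genes. REEP5, which bends the tubules of the endoplasmic reticulum, had 2 of the 98 probes. C130R159 had -0.66 to 0.05 in WN fish (median -0.49), -0.99 to -0.23 in WH fish (median -0.46) and 0.26 to 1.01 in CT fish (median 0.50). C044R128 had -0.98 to -0.19 in WN fish (median -0.65), -1.03 to -0.13 in WH fish (median -0.47) and 0.17 to 0.88 in CT fish (median 0.37). Both fell by 1.04 and 1.03 on average, though WH fish were the lower in C130R159 and WN fish the lower in C044R128, and in 14 of the 18 fish the probes differed by less than 0.5. AP1M2, a subunit of the clathrin adaptor that sorts proteins at the Golgi, had a mean decrease of 1.12, with the highest warmed fish, WN-2 at 0.44, just under the lowest CT fish at 0.45. APPBP2, which binds the amyloid precursor protein and serves as a receptor of a ubiquitin ligase, had the smallest decrease of the 98, 1.01, and its WH fish lay lower than its WN fish by 0.39 on average.

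Of the secretory pathway list, 25 further named probes were tested. In WN v CT 7 fell and 1 rose, and in WH v CT 6 fell and 1 rose. TMED10, a cargo receptor between endoplasmic reticulum and Golgi, fell by 1.10 in WN fish (limma, SE 0.22, adjusted p = 0.00471) and by 0.97 in WH fish (SE 0.22, adjusted p = 0.0108). RTN3, which like REEP5 shapes tubules, fell by 0.91 (adjusted p = 0.0171) and by 0.96 (adjusted p = 0.015). SRP9, of the signal recognition particle, rose by 1.04 (adjusted p = 0.00408) and by 1.09 (adjusted p = 0.00151).

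Lysosomal enzymes gave 2 probes. CTSH, cathepsin H, a protease that trims peptides, had -1.24 to -0.05 in WN fish (median -0.69), -1.09 to -0.16 in WH fish (median -0.67) and 0.01 to 0.85 in CT fish (median 0.45). The WN and WH means of CTSH differed by 0.01. HEXA, a subunit of the hexosaminidase that breaks gangliosides down, had -0.52 to -0.22 in WN fish (median -0.42), -1.73 to -0.07 in WH fish (median -0.48) and 0.11 to 1.37 in CT fish (median 0.39). HEXA was the dimmest of the named probes, and in 1 WN fish its Cy5 spot was not above background. The mean decrease was 1.13 for CTSH and 1.04 for HEXA.

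PTP4A2, a small membrane-bound phosphatase linked to cell growth, had 2 of the 98 probes with a wide gap. C054R046 had -0.87 to -0.18 in WN fish (median -0.45), -1.22 to -0.40 in WH fish (median -0.66) and 0.46 to 0.90 in CT fish (median 0.58). C068R055 had -0.89 to -0.16 in WN fish (median -0.59), -0.80 to -0.54 in WH fish (median -0.71) and 0.37 to 0.61 in CT fish (median 0.44). Their mean decreases were 1.24 and 1.09, and they differed by less than 0.5 in all 18 fish. ABRACL and CF115, 2 names of a small protein related to an actin-binding regulator, had mean decreases of 1.06 and 1.02 and also lay within 0.5 of each other in all 18 fish. In ABRACL the CT fish ran from -0.05 to 1.37 (median 0.14), so that most lay only a little above the highest warmed fish, WN-2 at -0.10. The other WN fish ran from -1.13 to -0.36 and the WH fish from -1.03 to -0.23.

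For the symbols of these 17 probes, the readable names gave 19 further probes outside the 98, some of which matched another RefSeq gene. Of these 19, 13 fell in WN v CT and 14 in WH v CT. In both comparisons 11 fell (limma, adjusted over all probes tested, where 1.78% were called lower in both). The 19 too had been named from the list of changes in WN fish. Of 6 further DUT probes, 3 matched another RefSeq gene than the probe among the 98 and fell in WH v CT only. The other 3 matched the same RefSeq gene as that probe and fell in both comparisons. Among these, C219R085 fell by 1.14 in WN fish (SE 0.27, adjusted p = 0.0159) and by 1.31 in WH fish (SE 0.27, adjusted p = 0.00489), and lay outside the 98 because its groups overlapped. All 3 further BRP44 probes fell in both, by 0.92 to 1.03 in WN fish and by 0.85 to 1.03 in WH fish, and none of them had a value on all 18 arrays in the authors' table.

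STMN1 was the exception in direction. C001R139 fell by 1.04 in WN fish (limma, SE 0.29, adjusted p = 0.0416) and by 1.90 in WH fish (SE 0.29, adjusted p = 0.000366), while C169R101 was higher by 0.85 in WN fish (SE 0.27, adjusted p = 0.0685) and rose by 1.05 in WH fish (SE 0.27, adjusted p = 0.0215). The 3 STMN1 probes matched 3 different RefSeq genes, so they are not repeats of 1 transcript. The further PTPLB probe, C120R118, passed in neither comparison and matched another RefSeq gene than the probe among the 98, with changes of -1.01 in WN fish (adjusted p = 0.169) and -0.37 in WH fish (adjusted p = 0.704). The further AP1M2 probe, C127R065, matched the same RefSeq gene as the probe among the 98. It changed by -0.88 in WN fish (adjusted p = 0.0145) and by -0.54 in WH fish (adjusted p = 0.155). For REEP5, C259R070 passed in both comparisons and C080R130 in neither. C080R130 matched another RefSeq gene than the REEP5 probe of the 98 that had a match. For PTP4A2, C188R075, without a RefSeq match, passed in both and C262R018 in WN v CT only. C262R018 matched another RefSeq gene than the PTP4A2 probes among the 98.

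**Figure D4:**
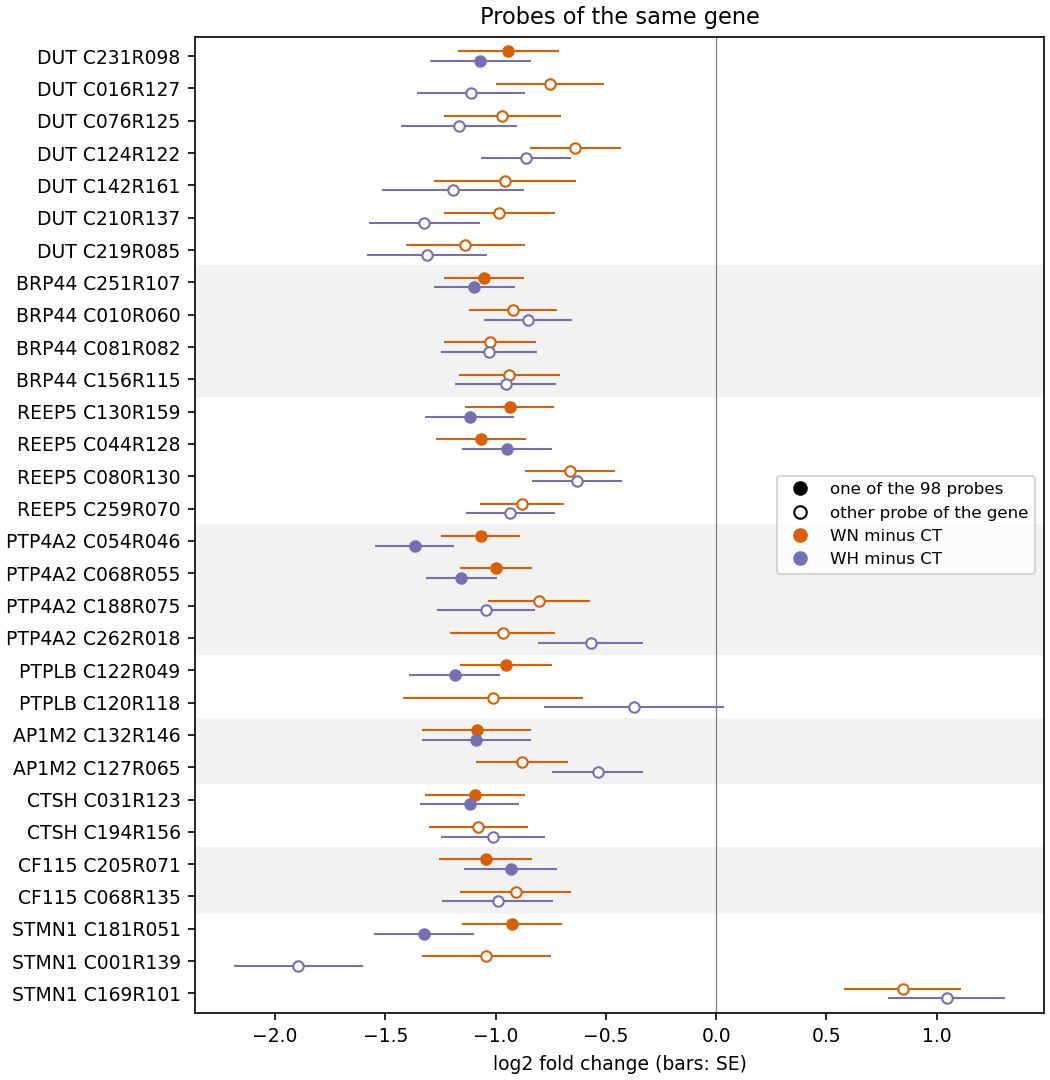
Log2 fold change from CT fish (x axis, bars: SE) in WN and WH fish for every tested probe named with 9 gene symbols. Points are filled where the probe is one of the 98 and open where it is another probe of that symbol. For DUT, REEP5, PTP4A2, PTPLB and STMN1, open points include probes that matched another RefSeq gene than the filled ones. All but STMN1 C169R101 lie below 0, and the open points of DUT and BRP44 lie close to the filled ones.

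The proteasome, the barrel-shaped protease that degrades proteins tagged with ubiquitin, supplied none of the 17 named probes of the 98. Whether the 81 unnamed ones hold any is unknown. Of its probes, 69 were named from the study's list of changes in WN fish. Of these, 52 had a value on all 18 arrays and all 52 had a lower mean in warmed than in CT fish, with a median change of -0.73. That list was drawn from the same fish, so a shift from CT fish was built in and is not independent evidence. In 5 of the 52 no warmed fish overlapped the CT fish, and none of those 5 reached a mean decrease of 1. By limma, 38 of the 69 fell in WN v CT and 18 in WH v CT, where 3.08% and 2.72% of all probes tested were called lower. The median changes were -0.77 in WN fish and -0.55 in WH fish. Median centring in place of loess left 3 in WN v CT and 1 in WH v CT, and slide as a block left 21 and 7. PSME2, a subunit of the activator cap, fell by 1.15 in WN fish (SE 0.26, adjusted p = 0.0117) and by 1.08 in WH fish (SE 0.26, adjusted p = 0.0156). PSMA6, of the outer ring, fell by 0.91 (adjusted p = 0.0066) and by 0.99 (adjusted p = 0.00311), and PSMD3, of the lid, by 0.84 (adjusted p = 0.0473) and by 1.15 (adjusted p = 0.00558).

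The unnamed probes of the 98 could not be assigned to a list. Matched by the gene symbols used here, the remaining lists supplied none of the 17 named probes. Among these lists, antioxidant and detoxification genes had 13 named probes. Of these, 6 fell and 1 rose in WN v CT and 5 fell and 0 rose in WH v CT. Heat shock proteins, which fold proteins under stress, had 25 named probes. Of these, 20 rose and 3 fell in WN v CT, and 20 rose and 1 fell in WH v CT, without a counted share of rises over all probes. Among the markers of other cell types, the mean over 5 red blood cell probes (ALAS2, CA2 and hba4) was -0.88 to -0.03 in WN fish, -1.09 to 0.06 in WH fish and 0.15 to 0.63 in CT fish. The mean over 6 B cell probes (IGHD, IGHM and IGKC) was -0.88 to -0.03 in WN fish, -0.82 to 0.28 in WH fish and -0.21 to 0.90 in CT fish. The red blood cell values did not overlap between warmed and CT fish, those of B cells did, and their part in the decrease of the 98 probes was not tested. Of the 5 red blood cell probes, 0 fell in WN v CT and 1 in WH v CT. Of the 6 B cell probes, 1 fell in WN v CT and 0 in WH v CT, and none of either list rose. All marker probes here were named from the study's list of changes in WN fish or its qPCR gene table. A separation of their values from CT fish is thus not independent evidence. The mean over 5 myeloid probes (CTSS, MMP13, MMP9 and MPO) was lowest in CT fish, with -1.01 to 0.76 in WN fish, -0.47 to 0.64 in WH fish and -1.70 to -0.64 in CT fish. Of these 5 probes, 3 rose and 0 fell in WN v CT and 3 rose and 0 fell in WH v CT. The WH fish did not overlap the CT fish in this mean, the WN fish did, and its part in the decrease of the 98 probes was not tested. The mean over 4 hepatocyte probes (APOH, C3 and C5) was -0.84 to 0.06 in WN fish, -0.53 to 0.38 in WH fish and -0.85 to 0.34 in CT fish. This mean hides opposite directions, as the changes of the 4 probes in WN fish ran from -0.97 to 1.62. Of them, 1 fell and 1 rose in WN v CT, and 0 fell and 1 rose in WH v CT. APOH, C3 and C5 were the only hepatocyte markers among the named probes, and their probes were above background.

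Just inside the smallest decrease allowed lay APPBP2 (1.01), the unnamed probe C057R087 (1.02) and CF115 (1.02). Just outside it lay CDC42, a small GTPase of the cell skeleton, with 0.99, DTX3, a ubiquitin ligase, with 0.99 and COX7A2, a subunit of respiratory complex IV, with 0.98. At the limit on the gap, C265R026, C084R015 and AP1M2 were inside with 0.00, 0.00 and 0.01, while C075R166, the splicing factor RBM4 and C116R099 were outside with overlaps of 0.00, 0.01 and 0.02. At the limit on the difference of WN and WH fish, C180R071, C259R043 and C078R056 were inside with 0.49, 0.48 and 0.47, and C207R003, C078R152 and C147R018 were outside with 0.53, 0.57 and 0.57. The values on both sides of each limit lay closer together than the median SD within a group.

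The 98 probes were spread over the range of brightness. By mean brightness, 16 lay below the lower quartile of the 11761 probes, 25 between it and the median, 21 from there to the upper quartile and 36 above that. The median change was -1.66, -1.71, -1.29 and -1.20 in these 4 classes, dimmest first. Before normalization, the median Cy5 intensity over the 98 was 1517 in WN fish, 1759 in WH fish and 5844 in CT fish. All 98 were above background in every CT fish, while 25 were not above it in at least 1 WN fish and 7 in at least 1 WH fish. WN-5, whose array had the lowest ratio of signal to background, had 19 of these probes not above background, and WN-4 and WH-4 had none. No spot of the 98 was marked as saturated. A change of a probe that is near background in warmed fish is the least certain in size.

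Averaged over the 98 probes, the ratio was -1.09 to -0.60 in WN fish (median -0.84), -0.84 to -0.63 in WH fish (median -0.78) and 0.54 to 0.84 in CT fish (median 0.78). Among CT fish, CT-3 was the lowest at 0.54, against 0.73 to 0.84 in the other 5, and it held the lowest CT value in 33 of the 98 probes. Among warmed fish, WN-4 and WH-4 each held the highest value in 18 probes. By the rule applied without CT-3, 133 probes would be chosen, 96 of them among the 98.

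The rule took no account of tanks, although it favours probes with little spread. The mean over the 98 was -0.87 in tank T2 and -0.79 in T5 (both WN), -0.80 in T1 and -0.73 in T6 (both WH), and 0.68 in T3 and 0.83 in T4 (both CT). By a moderated F test of the difference between tanks of a treatment, none of the 98 passed after adjustment and none of all probes did (0.00%). At an unadjusted p under 0.05 there were 7 of the 98 (7.14%), against 4.28% of all probes. The smallest adjusted p among the 98 was 0.988.

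The arrays lay on 5 slides, of which slide 5 held 2 WN, 2 WH and 0 CT fish. Within each of the 4 slides that held warmed and CT fish, the median difference over the 98 probes was -1.49 on slide 1, -1.40 on slide 2, -1.23 on slide 3 and -1.38 on slide 4, on 1 to 3 warmed and 1 or 2 CT fish a slide. The rule put every warmed fish below every CT fish, so these differences had to be negative and are no test of slide. By a moderated F test of slide in a fit with treatment, none of the 98 passed, against 14 of all probes (0.0587%). At an unadjusted p under 0.05 there were 5 of the 98 (5.10%), against 12.1% of all probes. The rule favours probes with little spread within groups, so nothing is read from this lower share.

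**Figure D5:**
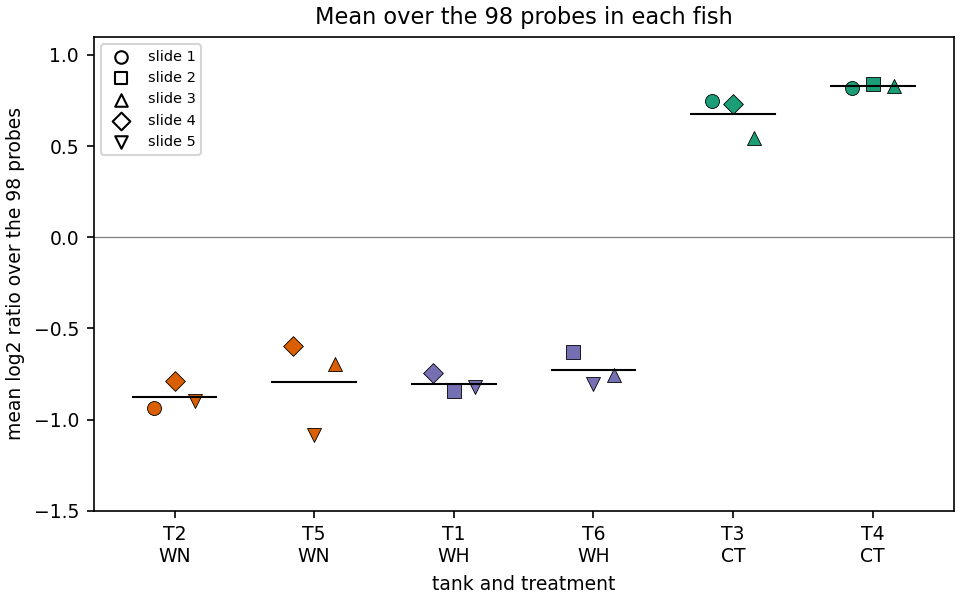
Mean log2 ratio over the 98 probes (y axis) in each of the 18 fish, by tank and treatment (x axis), with the slide as the symbol and a line at the mean of each tank. The WN and WH fish lie between -1.09 and -0.60 in all 4 tanks, and the CT fish between 0.54 and 0.84.

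Beyond the treatment, the 98 probes were weakly correlated, a little more than all probes. After the group means were taken away, the correlation between 2 of them across the 18 fish had a median of 0.08 over 4753 pairs, with 61.5% of the pairs above 0. Over all pairs of the 11761 probes it was 0.02, with 52.0% above 0. These correlations share the same arrays and reference pool and are given as a description. The rule favours probes with little spread within groups, so weak correlations do not show that the probes share little.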

How the data were processed

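Each of 18 two-colour arrays held liver RNA of 1 Atlantic salmon. Spots were read by the authors with ImaGene, and spot intensity, local background and a flag are in the scanner files they deposited. The authors' processed table gives log2 ratios (Cy5 over Cy3), corrected for background, free of flagged spots and normalized by loess, with values for 17072 probes, 11761 of them complete. The members were chosen from that table. The members and gene lists were chosen with earlier results of these data known.

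From the intensities, log2 ratios were recomputed in R (version 4.3.3) with limma (version 3.58.1), by normexp with an offset of 50 and loess within arrays. Flagged spots were set to missing. Of 43689 probes, 23846 were tested, those above the background by 2 background SDs in a channel on 75% of the arrays. The correlation with the authors' values was 0.959 to 0.996 per array. One limma fit covered the 3 groups, with Benjamini-Hochberg adjustment and a threshold of 0.05. Values by fish are the authors' where a probe is among the 98, and fold changes with an SE or p are recomputed. The fits were tested on simulated data.

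Genes were named from 1493 readable entries of the study's table of probes changed in WN fish and from its qPCR gene table, and 81 of the 98 probes have no symbol there. One probe that the qPCR table lists under 2 genes was left unnamed. The table's fold changes were not used. Named were the 10 largest decreases, every member with a symbol, further probes of their genes, the 3 largest changes called in both comparisons in each list with a member and in the proteasome list (added because it was the most often named), and probes next to a limit. Replicate numbers were not taken to pair fish, except in the fit with the number as a block. Alternatives were other background corrections, median centring, spot means, the authors' values, detection filters, slide, replicate number and tank as blocks, fits of 12 arrays, other limits of the rule and each array left out.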

Additional observations from a re-analysis of the deposited data

Results flagged for a closer look

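Values by fish were screened in 84 groups of 6 fish (the mean over the 98 probes, the 10 largest decreases and the 17 named probes in each treatment) for a fish that stands apart from the others, and 6 were found, where chance gives about 1 in 20. The mean over the 98 probes was 0.54 in CT-3, below the other CT fish at 0.73 to 0.84. In C078R056, WN-1 was at -6.95 and the other WN fish at -2.33 to -0.56. In BRP44 C251R107, WH-2 was at -0.30, above the other WH fish at -0.89 to -0.67. In CF115 C205R071, WN-3 was at -1.45 and the other WN fish at -0.74 to -0.35. In C118R056, CT-5 was at 1.70 and the other CT fish at 0.93 to 1.18, and in AP1M2 C132R146, CT-4 was at 1.26 and the others at 0.45 to 0.70.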

How the results depend on the processing

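All 98 probes stayed lower in warmed than in CT fish under each background correction, normalization and array left out, with median changes of -1.34 to -1.20. The rule chose them for this decrease on the same scans, so the direction was nearly fixed in advance. Raising the smallest decrease to 1.5 left 41 probes, and 97 to 133 were chosen with 1 array left out. Without overlap in the recomputed values were 39 probes under median centring. Of the 98, 73 to 98 were called under every setting of both comparisons with CT fish, and 0 between WH and WN fish. In the settings where tanks and slides were tested, 0 were called for either. The rule used the same fish and caps the difference of WH and WN fish. Shares called over all probes were counted only in the main fit, so nothing is read from these counts. Calls of named probes outside the 98 moved more. For the proteasome, median centring left 3 in WN v CT and 1 in WH v CT, slide as a block 21 and 7, and the 12 arrays of WN v CT 25. One array left out gave 24 to 46 in WN v CT (24 without CT-4 and 24 without CT-6) and 11 to 21 in WH v CT (11 without WH-1). For the other lists, of 304 probes 108 fell and 50 rose in WN v CT, and 76 fell and 45 rose in WH v CT. Of falls, median centring left 19 and 16, slide as a block 48 and 30, and 1 array left out gave 57 to 110 in WN v CT (68 without CT-4, 57 without CT-6 and 70 without WN-5). The cause was not tested. With the replicate number as a block, 98 members were called in WN v CT and 98 in WH v CT, 36 and 13 proteasome probes, and 88 and 58 falls in the other lists. Same-numbered fish correlated from -0.11 to 0.12 after group means were taken away. The sample titles carry a serial number in which same-numbered fish follow one another, and what it stands for is not stated. These correlations cannot tell whether same-numbered fish shared a step of the work. Probes near background limit the precision, most in WN-5.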
